A study of Mus musculus with 10 samples.

Results

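The gene described here is Bdnf, with its alternative transcripts, in RNA from mouse hippocampal synaptoneurosomes. Bdnf (ENSMUSG00000048482.15) was 1 of 22255 rows of the gene table, and the 11 transcripts annotated to it were rows of a table of 102392 transcripts. The transcripts were those the annotation assigns to Bdnf, matched by identifier without its version. The gene count equalled the sum of the 11 transcripts in every library. Synaptoneurosomes are pinched-off, resealed synaptic compartments prepared from homogenised tissue. The tissue came from wild-type C57Bl/6J mice in 2 groups, 5 libraries after sub-chronic vehicle and 5 after sub-chronic AM6545, which blocks CB1 cannabinoid receptors and crosses poorly from blood into brain. The dose, the schedule, the age and sex of the animals, and whether a library came from 1 animal or a pool, are not given in the sources used here, so p-values measure the spread between libraries.

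Bdnf encodes brain-derived neurotrophic factor, a secreted protein that acts at synapses through its receptor TrkB. It is made as a precursor, proBDNF, which proteases such as furin and plasmin cut to the mature form, while uncut proBDNF can bind the receptor p75 together with sortilin. The gene has a series of promoters, each with its own 5′ exon that is spliced to 1 shared exon holding the coding sequence. Promoters I and IV are known for their response to neuronal activity, through elements bound by CREB and other factors. The transcripts can end at a near or a far polyadenylation site, and the form with the long 3′ UTR is known for its presence in dendrites.

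In the GENCODE M21 annotation, on build GRCm38, Bdnf lies on the plus strand at chr2:109674700-109727007. Its 11 transcripts start in 8 separate groups of overlapping first exons, taken here as promoter groups. The first 6 groups along the gene are named exon I to exon VI after the usual numbering of Bdnf exons, and the last 2 are named by their transcripts. Exon I (640 bases), exon II (up to 499 bases, with 3 splice donors) and exon III (193 bases) start within 2332 bases of each other. Exon IV (339 bases), exon V (81 bases) and exon VI (347 bases) form a second cluster that begins 17736 bases into the gene. Bdnf-203 and Bdnf-204 share the seventh group, and Bdnf-202 begins 34683 bases in. All 11 end with the same last exon of 3626 bases, at chr2:109723382-109727007.

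The protein differed little between the models. In 9 of the 11 transcripts the coding sequence was the same and encoded 249 residues from a start codon in the last exon. Bdnf-201, the exon I transcript, has its start codon at the end of exon I and encodes 257 residues, 8 more at the amino end. Bdnf-202 encodes 289 residues. The first 30 coding bases of the exon I and exon VI transcripts are shown because this is the only place where the proteins of the transcripts with counts differ. They are read 5′ to 3′ from the GENCODE M21 transcripts, and capitals mark the start codon and, in Bdnf-201, also the shared start codon further on.
Bdnf-201: ATGttccaccaggtgagaagagtgATGacc
Bdnf-205: ATGaccatccttttccttactatggttatt

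RefSeq promoter windows (build GRCm38.p6, 250 bases before to 50 after a start) were given for 7 Bdnf starts, 6 of which coincide with an M21 first exon: those of exons I, III, IV and V, of the Bdnf-203 and Bdnf-204 group and of Bdnf-202. Exons II and VI had no window. The windows were searched on both strands for TGACG, the half-site of the cyclic AMP response element that CREB binds. It occurred in 1 of the 7, the window of exon IV, at a position 35 bases before the start. Of all 32851 windows of 300 bases in the same table, 20.8% held it. The stretch is printed because exon IV supplied the second largest part of the Bdnf counts. It is at chr2:109692389-109692418 on the plus strand, and capitals mark the match, which reads TGACG on the other strand.
Exon IV: tatgacagctcaCGTCAaggcagcgtggag

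**Figure D1:**
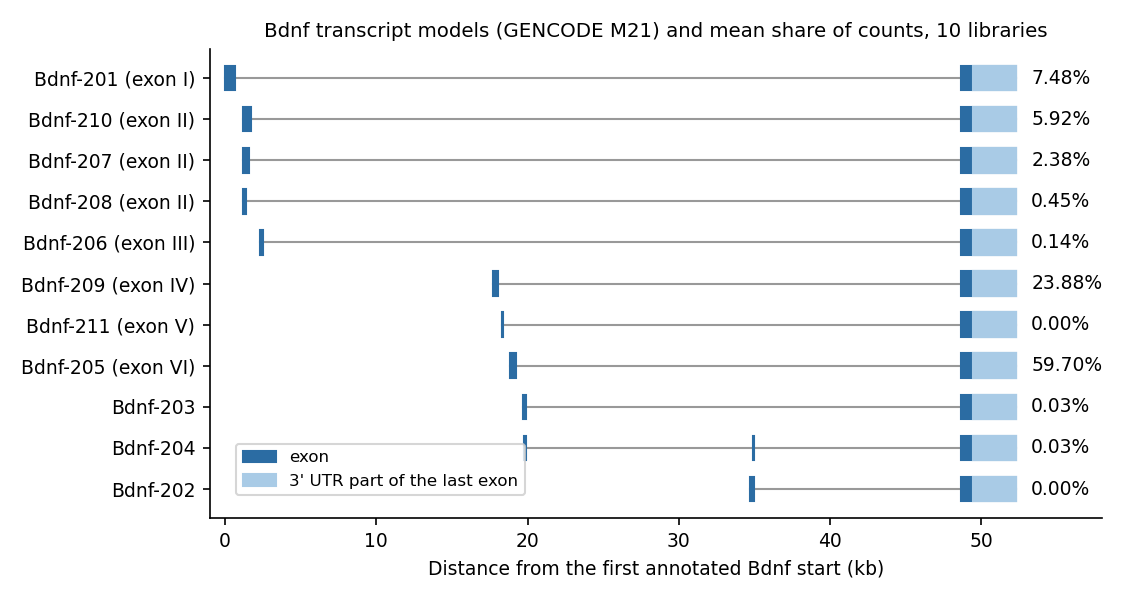
Models of the 11 Bdnf transcripts in GENCODE M21, with exons as boxes and introns as lines against the distance in kb from the first annotated start, and each transcript's mean share of the Bdnf counts over 10 libraries at the right. First exons differ while the last exon and its 3′ UTR are shared by all 11; Bdnf-205 (exon VI) and Bdnf-209 (exon IV) held the largest shares, 59.7% and 23.9%.

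The deposited files could not divide Bdnf by 3′ UTR. The annotated 3′ UTR was the same 2855 bases in all 11 models, so none fell in a short class of under 1000 bases, and all 11 stayed in the long class when it was set at 2000 bases. The polyadenylation hexamer AATAAA occurred 5 times in this 3′ UTR, at 284, 318, 729, 749 and 1042 bases after the stop codon. A count from an mRNA that ends early is therefore part of the same 11 rows as one that runs to the far site. Whether the balance of short and long forms differed between the groups was not tested.

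The 10 libraries held 18106112 to 25899794 counts in the gene table, of which Bdnf received 1883 to 3080 per library. Markers of excitatory neurons, dentate granule, CA1, CA2 and CA3 pyramidal cells, inhibitory neurons, astrocytes, microglia, oligodendrocytes, vessels, choroid plexus and blood were all present, with 0 of the markers in any list at 0 in all libraries. Their summed levels overlapped between the groups in each of these 11 lists. Excitatory neuron markers summed to 1467 to 2029 CPM (counts relative to the TMM-scaled library total) in vehicle and 1672 to 1977 CPM in AM6545 libraries. Dentate granule cell markers summed to 465 to 602 CPM and 480.3 to 551 CPM. Choroid plexus markers varied most, from 58.8 CPM in vehicle replicate 4 to 4923 CPM in vehicle replicate 1. In bulk RNA of this kind, the number of cells of a type, the RNA per cell and the purity of the synaptic preparation cannot be told apart.

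The total level of Bdnf spanned 90.65 to 126 CPM. In the vehicle libraries it was 119.9, 95.3, 117, 126 and 90.65 CPM for replicates 1 to 5. In the AM6545 libraries it was 96.1, 101.2, 106, 101.1 and 93.1 CPM. The AM6545 libraries lay within the range of the vehicle libraries, of which 3 were above all AM6545 libraries and 1 was below them. The means were 109.7 ± 15.8 CPM in vehicle and 99.55 ± 5.08 CPM in AM6545 (n = 5 per group, SD). For Bdnf the log2 fold change came to -0.14 (standard error 0.10), with a 95% interval of -0.36 to 0.08 (edgeR quasi-likelihood test, adjusted p over 14358 genes = 0.9998). On the linear scale the interval reached from 0.778 to 1.06 times the vehicle level. No gene of the 14358 tested, 0.00%, had an adjusted p under 0.05, and 1.88% had an unadjusted p under 0.05.

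The 2 vehicle libraries with the most Bdnf were unlike in their markers. Vehicle replicate 4, at 126 CPM, had the most excitatory neuron marker RNA (2029 CPM) and the least choroid plexus marker RNA of the 10 libraries. Vehicle replicate 1, at 119.9 CPM, had the least excitatory neuron marker RNA (1467 CPM) and the most choroid plexus marker RNA. Without vehicle replicate 4 the log2 fold change of Bdnf was -0.08, a smaller difference by more than 1.5 times. The part of these markers in the Bdnf level was not tested.

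**Figure D2:**
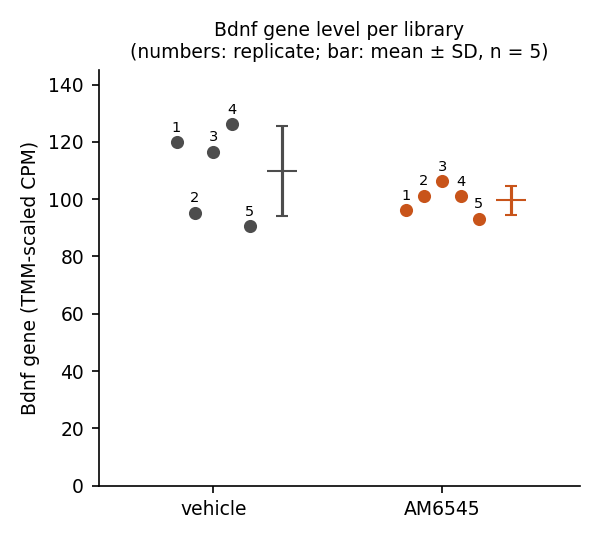
Bdnf gene level in TMM-scaled CPM for each library, with points numbered by replicate and the bar beside them giving the mean ± SD of 5 libraries. Vehicle libraries spread from 90.65 to 126 CPM and AM6545 libraries from 93.1 to 106 CPM, inside the vehicle range.

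Bdnf had a higher level per length than the neurotrophin genes Ntf3 and Ntf5 in each of the 10 libraries. Levels were compared as transcript counts per annotated length, scaled to the same sum in each library. On this scale Bdnf had 52.3 ± 5.30 in vehicle and 48.8 ± 1.603 in AM6545 libraries, and Ntf3 (neurotrophin 3) 29.7 ± 5.33 and 27.7 ± 3.47 (n = 5 per group, SD). The lowest Bdnf value of any library, 45.1, was above the highest Ntf3 value, 34.5. Ntf5 (neurotrophin 4) received 3 to 17 counts per library and did not pass the expression filter.

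Of the 11 transcripts, 5 passed the expression filter of the transcript table, and these came from exons I, II, IV and VI. The other 6 held few counts or none. Bdnf-211 (exon V) and Bdnf-202 were at 0 in all 10 libraries. A count of 0 allows up to 3 counts, or at most 0.165 CPM, from sequence that no other promoter group holds. By the word count described below, 2.09% of Bdnf-211 and 5.26% of Bdnf-202 occur in no other Bdnf promoter group. Reads from the rest, mostly the shared last exon, can be assigned to other Bdnf transcripts, so higher levels of both are not excluded. Bdnf-203 had 5.26 counts in 1 library, AM6545 replicate 3, and Bdnf-204 had 6.53 counts in 1 library, vehicle replicate 5. Bdnf-206 (exon III) was above 0 in 3 libraries, with at most 17.2 counts, and Bdnf-208, the exon II transcript with the nearest splice donor, in 6 libraries with at most 33.7 counts. Exons I, II, IV and VI together held 98.8% to 100% of the Bdnf counts of each library.

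Exon VI ranked first and exon IV second in 10 of 10 libraries. The mean share over the 10 libraries was 59.7% for exon VI, 23.9% for exon IV, 8.75% for exon II and 7.48% for exon I. The lowest exon VI share, 50.6%, was above the highest exon IV share, 26.9%, and the lowest exon IV share, 21.3%, was above the highest exon II share, 12.2%. Exons II and I overlapped, with exon II at 5.99% to 12.2% and exon I at 4.59% to 11.4%. Exon II was above exon I in 5 of 5 vehicle libraries and 2 of 5 AM6545 libraries. This comparison was chosen with the shares known, and the order was not tested. Exons II and I lay close in vehicle replicate 4 (9.16% and 9.03%), AM6545 replicate 1 (10.92% and 11.35%) and AM6545 replicate 3 (7.98% and 8.03%). After division by transcript length the mean shares were 60.1%, 24.1%, 8.57% and 7.01%, in the same order. The order of exons II and I in single AM6545 libraries did not hold after this division. Exon II was then above exon I in AM6545 replicates 1 (10.79% and 10.67%) and 3 (7.84% and 7.53%). In replicate 5 it stayed below (6.31% and 7.56%).

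**Figure D3:**
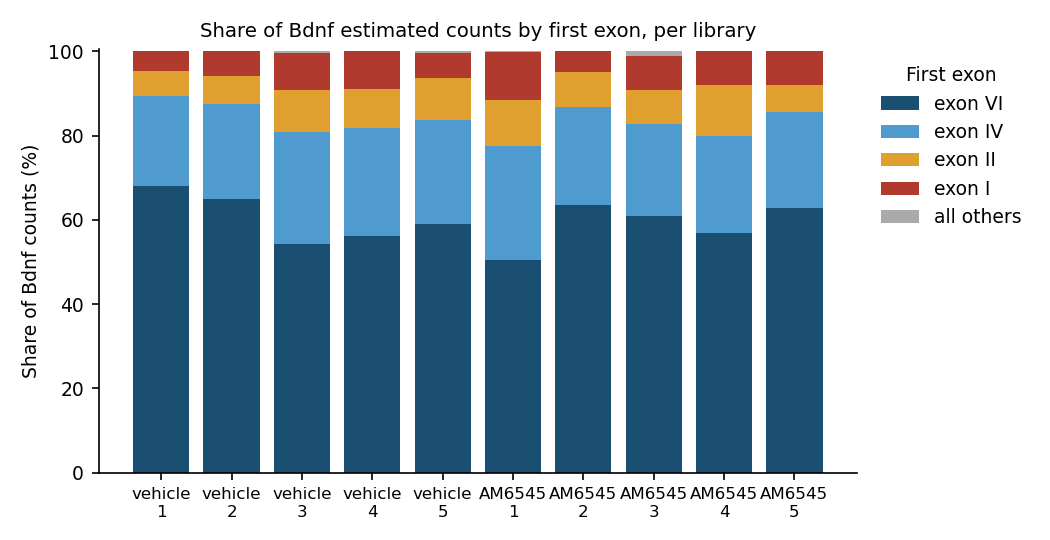
Share of the Bdnf estimated counts by first exon, in percent, as 1 stacked bar per library. Exon VI formed 50.6% to 68.2% and exon IV 21.3% to 26.9% of each bar, and the remaining promoter groups other than exons I and II are thin or absent.

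These shares rest on a small part of each transcript. Words of 31 bases were counted in the M21 models, and 8.75% of those of the exon VI transcript occur in no other Bdnf promoter group. The figure was 8.51% for exon IV, 15.1% for exon I and, for the exon II transcripts Bdnf-210 and Bdnf-207, 12.1% and 10.3%. The rest lies in the shared last exon. With reads of 31 bases, even along the transcripts, 103 to 151 of the exon VI counts of a library would have come from these words. The values were 36.1 to 67.3 for exon IV and 14.7 to 42.3 for exon I. For exon II they were 6.5 to 26.3 for Bdnf-210 and 2.5 to 9.2 for Bdnf-207. Longer reads would touch these words more often, so the values are low estimates. Of the 4236 words of Bdnf-201, 478 also occur in other genes on either strand. An exon of Gm45346, an antisense gene that has no value here, overlaps Bdnf on the opposite strand. How strand was used in counting is not given in the sources used here, so antisense reads cannot be told apart from those of exons I and II.

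Exon VI gave the most abundant transcript, Bdnf-205. Its share of the Bdnf counts was 68.2%, 64.9%, 54.3%, 56.1% and 58.9% in vehicle replicates 1 to 5 and 50.6%, 63.6%, 60.8%, 56.8% and 62.7% in AM6545 replicates 1 to 5. Vehicle replicate 1 was highest and AM6545 replicate 1 lowest, and the other libraries of the groups overlapped. The means were 60.5 ± 5.87% and 58.9 ± 5.35% (n = 5 per group, SD), a difference of -1.58 percentage points (two-sided exact permutation test, p = 0.667). In CPM, Bdnf-205 had 66.5 ± 10.6 in vehicle and 58.9 ± 6.48 in AM6545 (n = 5 per group, SD). The log2 fold change for Bdnf-205 came to -0.18, with a 95% interval of -0.45 to 0.10 (edgeR adjusted p over 31848 transcripts = 0.9999). Without vehicle replicate 1 it was -0.09.

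Exon IV, the promoter best known for its response to activity, gave Bdnf-209. Its share was 21.3%, 22.6%, 26.6%, 25.7% and 24.7% in vehicle replicates 1 to 5 and 26.9%, 23.2%, 22.01%, 23.1% and 22.8% in AM6545 replicates 1 to 5. AM6545 replicate 1 stood above the other 4 of its group, which lay close together and within the vehicle range. The means were 24.2 ± 2.20% and 23.6 ± 1.92% (n = 5 per group, SD), a difference of -0.59 points (exact permutation p = 0.643). In CPM the means were 26.7 ± 4.97 and 23.55 ± 1.76 (n = 5 per group, SD), with a log2 fold change of -0.18 and a 95% interval of -0.47 to 0.11 (edgeR adjusted p = 0.9999). That log2 fold change was -0.12 without vehicle replicate 3 and -0.10 without vehicle replicate 4. The exon VI share was 1.88 to 3.20 times the exon IV share, with means of 2.54 ± 0.486 in vehicle and 2.52 ± 0.381 in AM6545 (n = 5 per group, SD; exact permutation p = 0.937). This ratio, too, was chosen with the shares known.

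Exon I, the other promoter known for its response to activity, gave Bdnf-201. Its share was 4.59%, 5.89%, 8.82%, 9.03% and 6.07% in vehicle replicates 1 to 5 and 11.4%, 4.98%, 8.03%, 7.93% and 8.06% in AM6545 replicates 1 to 5. The highest share was in AM6545 replicate 1 and the groups otherwise overlapped. The means were 6.88 ± 1.95% and 8.07 ± 2.26% (n = 5 per group, SD; exact permutation p = 0.381). In CPM the means were 7.70 ± 2.96 and 8.04 ± 2.15 (n = 5 per group, SD). The log2 fold change of 0.07 had a 95% interval of -0.56 to 0.69 (edgeR adjusted p = 0.9999), and its sign changed when any 1 of vehicle replicates 1, 2 and 5 or AM6545 replicate 1 was left out.

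Exon II transcripts differ only in where the first exon is spliced to the last. Together they held 8.35 ± 1.92% of the vehicle and 9.15 ± 2.34% of the AM6545 counts (n = 5 per group, SD; exact permutation p = 0.556). Bdnf-210, with the farthest donor, had 4.31%, 4.39%, 7.09%, 5.78% and 8.87% in vehicle and 5.98%, 6.22%, 4.71%, 8.94% and 2.86% in AM6545 replicates 1 to 5 (exact permutation p = 0.818, n = 5 each). The AM6545 libraries of Bdnf-210 included both the highest and the lowest value.

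Bdnf-207, with the middle donor, was the 1 transcript whose share differed at an unadjusted p under 0.05. Its share was 1.54%, 1.39%, 2.53%, 2.42% and 1.11% in vehicle replicates 1 to 5 and 3.58%, 2.02%, 2.43%, 3.25% and 3.58% in AM6545 replicates 1 to 5. AM6545 replicates 1, 4 and 5 were above all vehicle libraries and replicates 2 and 3 were within the vehicle range. The means were 1.80 ± 0.635% and 2.97 ± 0.709% (n = 5 per group, SD), a difference of 1.17 points (two-sided exact permutation p = 0.0397, adjusted over 64152 transcripts 1.0). The count of 1 among the 9 Bdnf transcripts with a share to test stands beside 3.20% of all 64152 transcripts at the same unadjusted threshold. The smallest p that rearranging 5 against 5 libraries can give is 0.00794. Adjusted over all 64152 transcripts, even that p falls short of the threshold here. The adjusted value therefore decides nothing about Bdnf-207.

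The estimate for Bdnf-207 had little sequence of its own behind it. It received 23.7 to 88.6 counts per library, and 0.72% of its 31-base words occur in no other Bdnf transcript. With even reads of 31 bases, 0.17 to 0.64 counts of a library would have come from those words, and more with longer reads. Within exon II, Bdnf-207 held 11.1% to 26.4% of the counts in vehicle libraries and 24.5% to 55.6% in AM6545 libraries, and 4 of the 5 AM6545 libraries were above all vehicle libraries. This split of exon II was chosen after its values were seen, so its exact permutation p of 0.0476 (n = 5 per group) is a description and supports no difference. In CPM Bdnf-207 had 2.05 ± 0.935 and 2.95 ± 0.606 (n = 5 per group, SD), and its log2 fold change of 0.53 had a 95% interval of -0.22 to 1.28 (edgeR adjusted p = 0.9999). The share difference kept its sign, between 1.003 and 1.41 points, when each library was left out, but its exact permutation p rose to 0.0714 without any 1 of vehicle replicates 1, 2 and 5 or AM6545 replicates 1, 4 and 5.

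**Figure D4:**
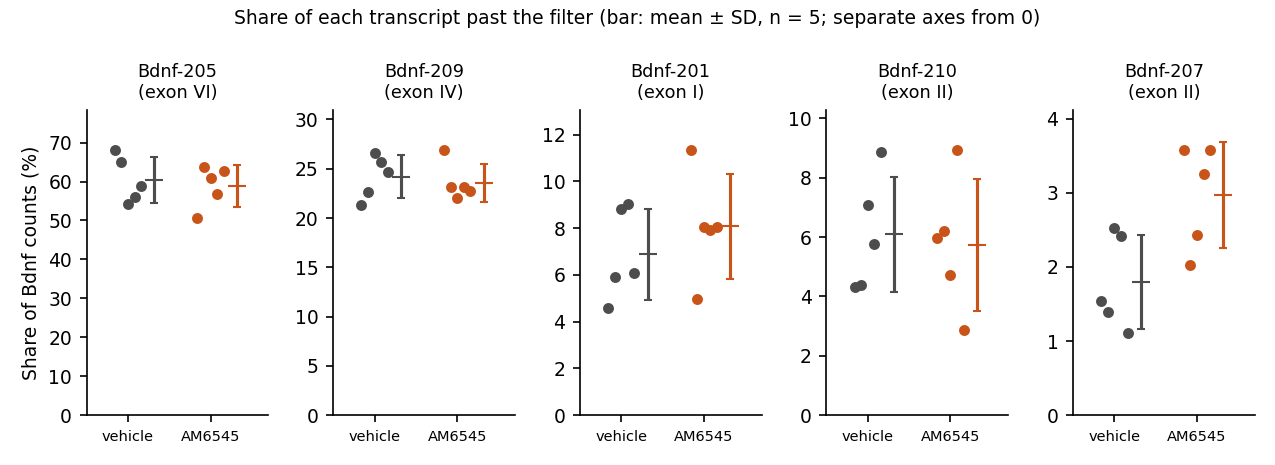
Share of the Bdnf counts, in percent, for each of the 5 transcripts past the filter, with 1 point per library, the mean ± SD of 5 libraries beside them and a separate axis from 0 in each panel. The groups overlap in every panel; for Bdnf-207 3 AM6545 libraries lie above all vehicle libraries.

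No Bdnf transcript passed the threshold in a test over the whole transcript table. With edgeR's quasi-likelihood test 0 of the 5 tested had an adjusted p under 0.05, and 0 had an unadjusted p under 0.05. Over the 31848 transcripts tested, 0.00314% passed the adjusted threshold and 1.97% the unadjusted one. The DESeq2 Wald test also called 0 of them. A fit of usage within genes, edgeR's diffSpliceDGE, called 0 of the 5, with adjusted p-values of 1, where 0.0194% of 25724 transcripts were called. For the Bdnf gene as a whole the same fit gave an adjusted p of 1. On simulated counts this fit called more unchanged than changed transcripts, so its values are a description and decide nothing about Bdnf.

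Genes around Bdnf in its pathway were read from 6 lists of receptors, processing and release factors, promoter regulators, mRNA binders, TrkB signalling proteins and response genes. Of 114 genes, 108 were tested with edgeR and 0 had an adjusted p under 0.05, 0 higher and 0 lower. 1 of the 108, Hap1, had an unadjusted p under 0.05, a smaller share than the 1.88% of all 14358 genes, and the DESeq2 Wald test called 0 genes. The median log2 fold change over the 108 was 0.0034, with 55 above 0, beside -0.0057 over all 14358 genes. The adjusted p was 0.9998 for each gene of the lists named with a log2 fold change. Exons of Sort1, Sorcs1, Furin, Syt4, Arnt2, Crem, Hnrnpu, Cyfip1, Plcg1 and Dusp1 overlap a gene on the opposite strand, so their values are uncertain in the same way as those of exons I and II.

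In the list of neurotrophins and receptors, 9 of 12 genes were tested, 3 were above 0 and 0 were called. Ntrk2, which encodes TrkB, had a log2 fold change of -0.01 with a 95% interval of -0.25 to 0.22. Sort1, which encodes sortilin, had 217.8 ± 17.8 CPM and 218.5 ± 31.99 CPM (n = 5 per group, SD), a log2 fold change of 0.0049. Ngfr, which encodes p75, received 0 to 3 counts per library and was not tested. Sorcs1 and Sorcs2, relatives of sortilin, had log2 fold changes of 0.04 and 0.10.

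In the list of processing, sorting and release factors, 15 of 18 genes were tested and 8 were above 0. Hap1 encodes huntingtin-associated protein 1, which takes part in the transport of BDNF vesicles. It had 29.8, 59.1, 37.9, 54.9 and 64.2 CPM in vehicle and 76.95, 72.5, 52.7, 77.3 and 79.8 CPM in AM6545 replicates 1 to 5. AM6545 replicates 1, 2, 4 and 5 were above all vehicle libraries and replicate 3 was within their range. For Hap1 the log2 fold change came to 0.55, with a 95% interval of 0.15 to 0.94 (edgeR adjusted p = 0.9998). Hap1 was named for its small p, and the interval is not adjusted for that choice, so it supports no difference. Furin, a protease that cuts proBDNF, had 6.65 ± 2.33 and 8.25 ± 0.854 CPM (n = 5 per group, SD), a log2 fold change of 0.31 with a 95% interval of -0.13 to 0.75. Plat, tissue plasminogen activator, had -0.01, Cadps2, a release factor of dense-core vesicles, 0.09, Chgb, a granin, -0.11 and Syt4, a synaptotagmin, -0.07, all as log2 fold changes.

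All 25 regulators of Bdnf promoters were tested and 11 were above 0, with log2 fold changes from -0.15 to 0.23. Creb1, an activator that binds cyclic AMP response elements, had 29.98 ± 2.46 CPM with vehicle and 28.4 ± 1.18 CPM after AM6545 (n = 5 per group, SD), a log2 fold change of -0.08 with a 95% interval of -0.27 to 0.11. Npas4, an activity-induced transcription factor, had 2.23 ± 0.790 and 2.09 ± 0.452 CPM (n = 5 per group, SD), a log2 fold change of -0.11 with a 95% interval of -0.63 to 0.42. Arnt2 had 0.12 and Tet1, a methylcytosine dioxygenase, 0.23, while Crem had -0.15 and Tcf4 -0.12.

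All 19 binders of Bdnf mRNA were tested and 11 were above 0. Elavl4, the neuronal RNA-binding protein HuD, had 87.15 ± 7.58 and 82.2 ± 9.98 CPM (n = 5 per group, SD), a log2 fold change of -0.08 with a 95% interval of -0.30 to 0.13. Tsn, which encodes translin, had -0.08, and Pum2 -0.12. Hnrnpu had 0.20 and Cyfip1 0.14, the genes with the smallest p-values among those above 0.

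Of the 24 TrkB signalling genes, all were tested and 14 were above 0, with log2 fold changes from -0.10 to 0.29. Shc3, an adaptor of Trk receptors, had the largest, 0.29, and Plcg1, phospholipase C gamma, had 0.17. Pik3r1 had -0.09. Of the 16 response genes 8 were above 0. Arc, an immediate early gene, had 89.8 ± 18.9 and 100 ± 18.2 CPM (n = 5 per group, SD), a log2 fold change of 0.16 with a 95% interval of -0.16 to 0.47. Vgf, a secreted neuropeptide precursor, had 0.16, Dusp1 -0.11, and Fosb -0.70 with a 95% interval of -1.63 to 0.23, on a level of 1.05 CPM in vehicle.

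**Figure D5:**
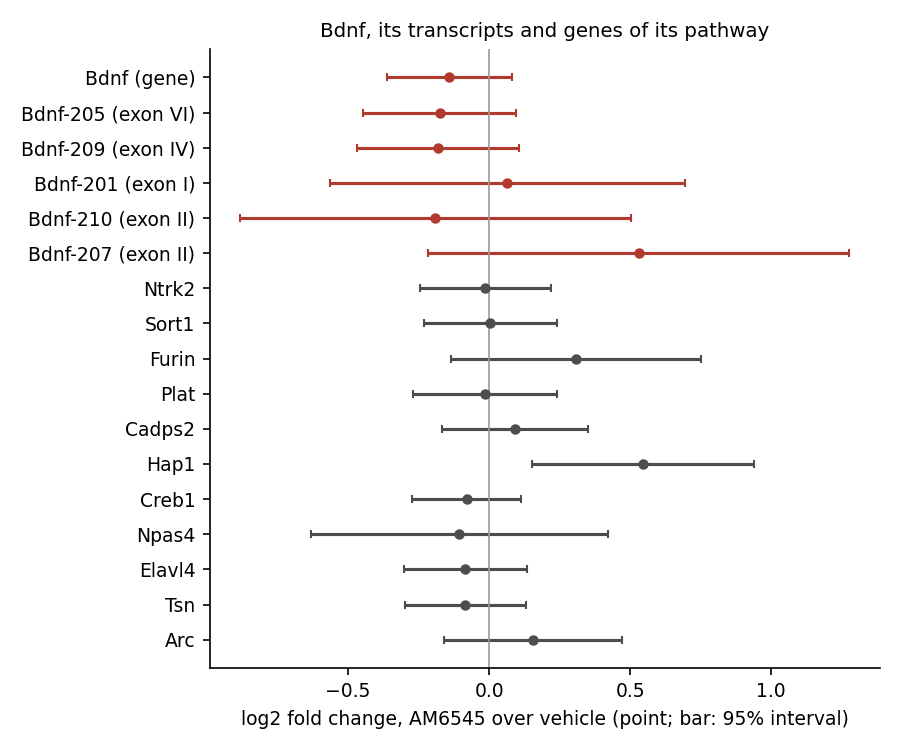
log2 fold change of AM6545 over vehicle libraries with its 95% interval (edgeR, 5 libraries per group) for Bdnf and its 5 tested transcripts in red and for 11 genes of its pathway in grey. Every interval but that of Hap1, 0.15 to 0.94, includes 0, and no gene or transcript shown passed the adjusted threshold. Hap1 was picked for its small p, and its interval is not adjusted for that choice.

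Across the 10 libraries the gene whose log2 CPM most resembled that of Bdnf was Tspan13, with a Pearson correlation of 0.971 among 9602 genes of at least 10 CPM. Tmem178 (0.960), Aig1 (0.958), Pdia6 (0.932) and Arxes2 (0.929) followed. Within each of the 10 libraries the genes also share its depth and tissue composition, and the genes were picked as the highest of many. The coefficient of variation of Bdnf over the 10 libraries, 11.7%, was at percentile 43.5 of 9603 genes, and its mean level was at percentile 86.4 of the genes tested.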

How the data were processed

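The members and gene lists were chosen with earlier results of these data known. The authors deposited estimated counts per gene and per transcript, and the submitters' processing notes name Salmon 1.5.2 and mm10. The annotation release and the use of strand are not given in the sources used here. Identifiers were matched without version to GENCODE M21 (101527 of 102392 transcripts, of which 99.2% carried a version 1 above M21), so exon structures used in counting may differ. Groups and replicate numbers came from the titles.

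Counts were rounded and tested with edgeR 4.0.16 (R 4.3.3), TMM, filterByExpr (minimum count 10, total 15), a group-only design, robust quasi-likelihood dispersions and Benjamini-Hochberg adjustment over all genes or transcripts, threshold 0.05. Shares of unrounded counts had two-sided exact permutation tests (numpy 2.4.6), also run on every transcript of genes with at least 10 counts in every library and 2 or more transcripts. The share and edgeR tests were tested on simulated counts, in which diffSpliceDGE called more unchanged than changed transcripts, so no statement rests on it alone. DESeq2 1.42.0, other filters and scalings, a replicate block and leaving out each library were alternatives. Named genes were Bdnf, its transcripts, a set of pathway genes (those past the filter) and the 2 of smallest p per list and direction; some of these are not reported here. PCR copies carry no molecular tags, so floors cover counting error only, and Salmon's own error of assignment is not in these tables.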

Additional observations from a re-analysis of the deposited data

Results flagged for a closer look

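The share of Bdnf-209, and with it of exon IV, whose only transcript it is, reached 26.9% in AM6545 replicate 1, while replicates 2 to 5 had 22.01% to 23.2%. Its gap to the next library was 0.768 of the range of the group, above the critical value of 0.71 for 5 libraries. The vehicle libraries reached 26.6%. This library also had the lowest exon VI share (50.6%) and the highest exon I share (11.4%). Of 30 groups of 5 examined in this way 2 were picked out, both the same values, and chance alone would pick out about 1 in 20.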

How the results depend on the processing

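The log2 fold change of Bdnf stayed negative and short of the threshold in every setting run, at -0.15 with DESeq2 size factors and -0.13 with the replicate block, and between -0.20 and -0.08 when each library was left out. The counts of Bdnf transcripts and pathway genes past the adjusted threshold were 0 in every setting run. The number of Bdnf transcripts with an exact permutation p under 0.05 for their share was 1, became 0 with the replicate block (sign flips within same-numbered pairs, whose smallest p is 0.0625; p = 0.125 for Bdnf-207), and was 0 to 1 when each library was left out. No promoter group had one. Same-numbered libraries correlated between -0.186 and 0.394 over genes. Differently numbered libraries were not compared, so these values cannot settle whether the numbers pair the samples. The titles name no pairs, and the main tests took none. On a log2 scale the difference of the Bdnf-203 and Bdnf-204 group turned to 0.10, on counts in 2 libraries. Leaving out single libraries gave log2 fold changes of -0.24 to -0.09 for Bdnf-205, -0.24 to -0.10 for Bdnf-209, -0.41 to -0.01 for Bdnf-210 and 0.36 to 0.71 for Bdnf-207. It turned the sign of the log2 fold change of Bdnf-201 (-0.077 to 0.25), of the shares of Bdnf-205 and exon VI (-3.12 to 0.51 points), Bdnf-209 and exon IV (-1.42 to 0.0196), Bdnf-210 (-1.15 to 0.37), Bdnf-208 (-0.25 to 0.11) and the Bdnf-203 and Bdnf-204 group (-0.061 to 0.055). The comparison of 3′ UTR classes and its alternatives were not run, since all 11 models fall in 1 class, and restricting promoter groups to coding transcripts left all 11 in place.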
